A study of Homo sapiens with 24 samples.

Results

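The 37 genes described here work at the G1/S boundary of the cell cycle and in DNA replication. They were chosen by gene symbol, current or older, from a fixed list of such genes, and all 37 were found among the 17199 genes that the arrays measure by name. They are read by 55 probes: 21 genes have 1 probe, 14 have 2 and 2 have 3. RNA of 2 established human neuroblastoma cell lines was hybridised to one-colour expression arrays. By their labels, the 4 groups were SK-N-AS cells with the HOXC9 transgene, SK-N-AS cells with the GFP transgene, IMR-32 cells with the HOXC9 transgene and IMR-32 cells with the GFP transgene; in SK-N-AS the HOXC9 probe goes against these labels, as given below. Each group has 1 array at each of 6 hours, namely 0, 6 and 12 h and then 24, 48 and 96 h, which makes 24 arrays. HOXC9 is a homeobox transcription factor, and GFP, a fluorescent protein, is the control. How the transgenes were delivered or switched on, and whether the cells were a clone or a pool, is not given in the sources used here. All values are log2 of the deposited intensity, and the quantity compared is a difference of log2 values. Because each hour has a single array per group, hours stand in for replicates. No label says that different hours were different cultures, and p-values therefore measure only the spread between these arrays, which may be technical. Except where a line is said to be fitted alone, both lines share 1 fit and 1 estimate of each gene's spread. The median SD of the 37 genes over the 6 hours was 0.08 (GFP) and 0.09 (HOXC9) in IMR-32. In SK-N-AS it was 0.14 (GFP) and 0.28 (labelled HOXC9).

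As background, cells commit to division late in G1, when cyclin E with its kinase partner, switched on by the phosphatase CDC25A, frees E2F transcription factors from the retinoblastoma protein. E2F factors then raise the genes that license origins (ORC, CDC6, CDT1 and the MCM helicase), activate that helicase (MCM10, CDC45 and GINS), copy DNA (polymerases, primase, sliding clamp and clamp loader) and supply nucleotides. In neuroblastoma, a tumour of the sympathetic lineage, high activity of E2F target genes is known from aggressive tumours.

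Promoter sequence was looked at first, because E2F control of these genes is read from short DNA motifs near the start. RefSeq windows (GRCh38.p14, 250 bases before to 50 bases after a gene's start) were held for 33 of the 37 genes; CCNE2, MCM4, MCM5 and GINS4 had none. The motifs searched on both strands were TTTCCCGC, TTTGGCGC, TTTCGCGC and TTTGCCGC, 8-letter forms of the E2F site. At least 1 of them occurred in 19 of the 33 genes (57.6%), against 5.69% of the 13566 genes tested that have a window and 3.31% of all 35116 windows. A match describes letters and is neither shown binding nor a cause. The 100 bases before the start are printed for 8 genes on which the results turn, with the matched letters in capitals: regulators that were lower in SK-N-AS arrays labelled HOXC9 (E2F1, E2F2, CDC25A, CDT1), genes lower at 0, 48 and 96 h (PCNA, TYMS) and genes higher at 6, 12 and 24 h (RFC3, RRM2).
E2F1: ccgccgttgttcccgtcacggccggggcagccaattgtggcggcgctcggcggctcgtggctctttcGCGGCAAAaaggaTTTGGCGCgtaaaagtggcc
E2F2: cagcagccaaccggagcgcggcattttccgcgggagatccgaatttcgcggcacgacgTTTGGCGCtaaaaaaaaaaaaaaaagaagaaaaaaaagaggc
CDC25A: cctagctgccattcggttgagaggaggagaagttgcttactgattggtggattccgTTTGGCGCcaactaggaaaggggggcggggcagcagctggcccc
CDT1: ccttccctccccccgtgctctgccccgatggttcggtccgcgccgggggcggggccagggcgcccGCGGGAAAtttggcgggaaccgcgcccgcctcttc
PCNA: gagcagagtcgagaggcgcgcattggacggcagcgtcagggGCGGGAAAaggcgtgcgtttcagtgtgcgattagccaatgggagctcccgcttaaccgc
TYMS: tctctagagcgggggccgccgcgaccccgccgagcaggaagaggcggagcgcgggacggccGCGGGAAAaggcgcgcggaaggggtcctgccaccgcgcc
RFC3: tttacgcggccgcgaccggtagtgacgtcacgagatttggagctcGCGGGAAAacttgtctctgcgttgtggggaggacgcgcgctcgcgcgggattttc
RRM2: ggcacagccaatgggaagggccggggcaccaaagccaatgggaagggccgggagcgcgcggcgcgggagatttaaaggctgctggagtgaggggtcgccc

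These stretches lie at chr20:33686386-33686485 (E2F1, minus strand), chr1:23531234-23531333 (E2F2, minus strand), chr3:48188418-48188517 (CDC25A, minus strand) and chr16:88803689-88803788 (CDT1, plus strand). The others lie at chr20:5126623-5126722 (PCNA, minus strand), chr18:657553-657652 (TYMS, plus strand), chr13:33818049-33818148 (RFC3, plus strand) and chr2:10122639-10122738 (RRM2, plus strand). E2F1 held 2 matches in its stretch, RRM2 held none, and the other 6 genes held 1 each. RRM2 carried 2 copies of CCAAT, another motif of proliferation genes. CCAAT on either strand was in at least 1 window of 57.6% of the members with a window and of 42.9% of the tested genes with a window.

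The HOXC9 probe was read first, as the check of the labels. From 6 to 96 h in SK-N-AS, HOXC9 measured 11.68, 11.72, 11.77, 11.74 and 11.63 on the arrays labelled HOXC9, against 12.39, 12.47, 12.13, 12.31 and 12.09 on the GFP arrays. It was lower at all 5 hours, by 0.57 ± 0.13 (SE; adjusted p = 0.00721), so the probe goes against the label, and the SK-N-AS arrays are called "labelled HOXC9" throughout. In IMR-32 the HOXC9 arrays measured 9.98, 10.34, 9.97, 9.97 and 9.86 and the GFP arrays 5.8, 5.63, 6.25, 6.16 and 5.88, a difference of 4.08 ± 0.13 (adjusted p = 1.77e-08). That gap was already present at 0 h, at 10.31 against 6.15. A second feature touches the results: among the SK-N-AS arrays labelled HOXC9, those of 6, 12 and 24 h correlate with each other at 0.995 to 0.997 and with those of 0, 48 and 96 h at only 0.979 to 0.984, and 60.8% of genes do not overlap between these sets of hours. In the SK-N-AS GFP group 12.6% do not overlap. The results for SK-N-AS are therefore given for each set of hours. Of 6 measured neuroblastoma markers, PHOX2A, HAND2 and GATA3 averaged at least 10.77 in every group. The other 3 were lower or uneven: in the SK-N-AS groups labelled HOXC9 and GFP, TH averaged 4.8 and 3.54, ISL1 8.4 and 9.32, and DBH 7.91 and 11.46, and in the IMR-32 HOXC9 and GFP groups TH averaged 10.53 and 9.1, ISL1 11.71 and 12.41, and DBH 8.6 and 9.07. Of 9 measured markers of other cells, PTPRC, a leukocyte gene, averaged 12.52 and 12.58 in SK-N-AS against 1.94 and 1.56 in IMR-32. KRT8, an epithelial keratin, averaged 10.8 to 11.84 over the 4 groups, and the other 7 averaged at most 7.1 in any group. Of these 9 markers, ALB was higher at 6, 12 and 24 h on the SK-N-AS arrays labelled HOXC9 than on the GFP arrays. PECAM1 and KRT8 were lower there. Of the 6 neuroblastoma markers 3 were lower there and 2 higher, and the highest difference was 1.79. The 3 lower ones, named because they had the smallest p, were DBH, ISL1 and HAND2, by 3.11 ± 0.21, 1.18 ± 0.14 and 0.73 ± 0.10. At 0, 48 and 96 h 2 of the 6 were lower and 2 higher, 33.3% each, against 18.2% and 18.0% of all genes. DBH and ISL1 were lower then, by 4.0 ± 0.21 and 0.67 ± 0.14, and TH was higher by 1.45 ± 0.35. The part of these markers in the results was not tested.

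In SK-N-AS the replication genes mostly lay lower on the arrays labelled HOXC9 than on the GFP arrays, and they did not move as one block. Over 6 to 96 h, 21 of the 37 were lower and 1, CDC6, was higher at an adjusted p under 0.05 (limma, adjusted over all 17199 genes), which is 59.5% of members against 42.2% of all genes. The share called lower was 56.8% of members and 21.4% of all genes (20.8% of all genes were higher), and the median difference was -0.29 for the members and -0.02 for all genes. At 6, 12 and 24 h 20 members were lower and 8 higher, 75.7% against 48.0% of all genes, where the share lower was 54.1% against 23.7% and the share higher 21.6% against 24.3%. At 0, 48 and 96 h 11 were lower and 1 higher, 32.4% of members against 36.2% of all genes, a share of calls under the background, with 29.7% of members and 18.2% of all genes lower (18.0% of all genes higher). The count over 6 to 96 h moves with the arrays in the fit. It was 14 without 6 h, 37.8% of members against 28.3% of all genes. With the SK-N-AS arrays fitted alone it was 10, 27.0% against 25.8%, a share near the background, and with 6, 12 and 24 h dropped it was 5, 13.5% against 22.0%, under the background. At every single hour most members lay below 0, from 24 of 37 at 48 h to 33 of 37 at 96 h, against 50.9% to 52.7% of all genes. With the HOXC9 probe against its label, the direction of these differences is that of the labels alone.

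**Figure D1:**
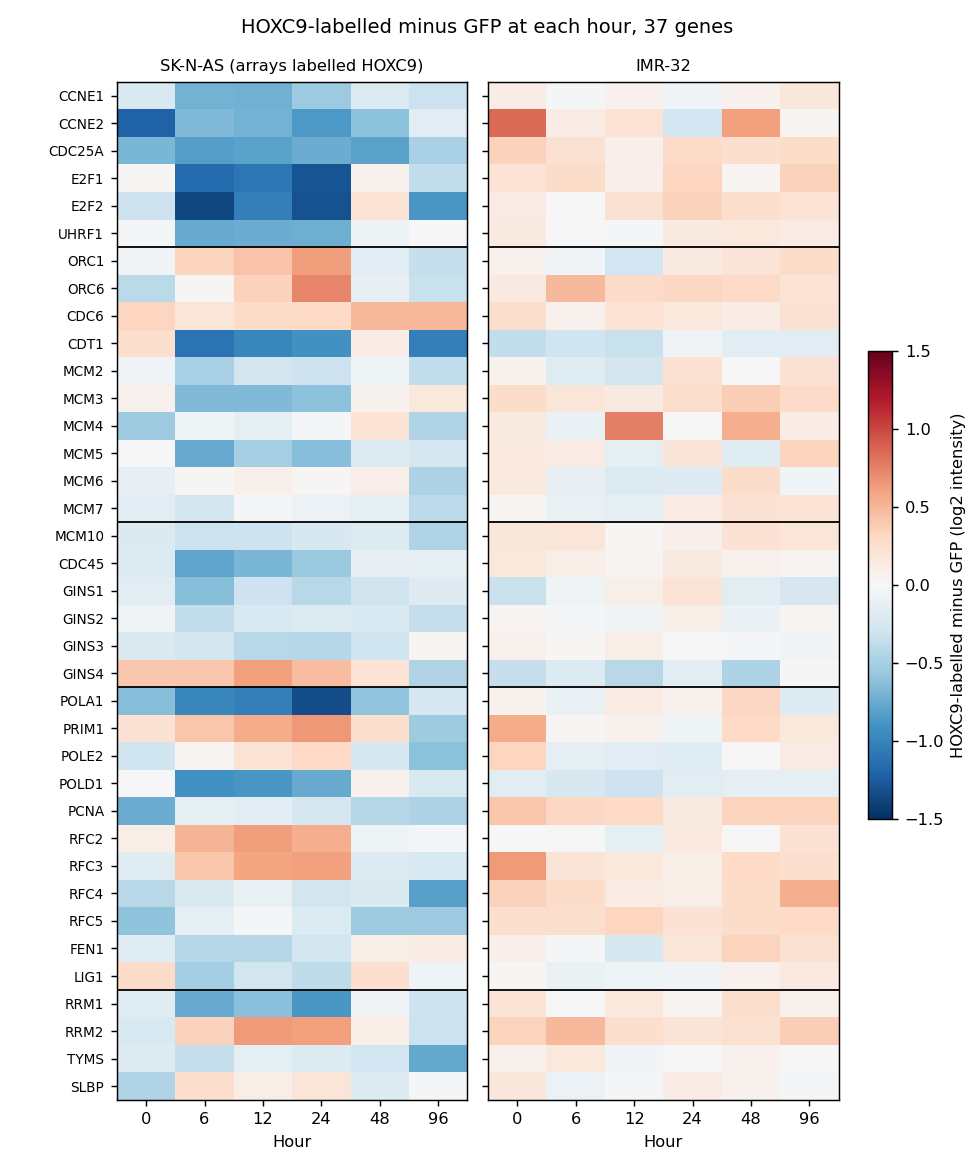
Difference between the array labelled HOXC9 and the GFP array of the same hour (log2 intensity, colour) for the 37 genes (rows, lines part the 5 role groups) at each hour (columns), in SK-N-AS on the left and IMR-32 on the right. In SK-N-AS the columns of 6, 12 and 24 h resemble each other, with E2F1, E2F2 and POLA1 among the deepest blue and RRM2, RFC2 and RFC3 red. In IMR-32 most cells are pale.

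The genes grouped here as G1/S regulators are E2F1, E2F2, CDC25A, CCNE1, CCNE2 and UHRF1, though UHRF1 carries DNA methylation. These genes were all lower at 6, 12 and 24 h in SK-N-AS arrays labelled HOXC9. All 6 of them passed the test, by 0.66 to 1.24 on the log2 scale, where 23.7% of all genes were called lower. E2F1, a transcription activator of S-phase genes, measured 11.93, 12.01 and 12.03 at 6, 12 and 24 h on the arrays labelled HOXC9, against 13.08, 13.09 and 13.32 on the GFP arrays. The groups stand well apart, with a difference of -1.18 ± 0.10 (adjusted p = 2.95e-06), a 2.26-fold lower level. For 0, 48 and 96 h the arrays labelled HOXC9 measured 13.06, 12.81 and 12.62 and the GFP arrays 13.05, 12.75 and 12.99, groups that overlap and differ by -0.10 ± 0.10 (adjusted p = 0.459). E2F2, a close relative of E2F1, measured 11.17, 11.68 and 11.83 at 6, 12 and 24 h on the arrays labelled HOXC9, against 12.54, 12.71 and 13.14 on the GFP arrays, a difference of -1.24 ± 0.16 (adjusted p = 7.01e-05). At the other hours E2F2 differed by -0.33 ± 0.16 (adjusted p = 0.131), and the GFP array of 48 h, at 11.83, was the lowest of its group. A second, fainter E2F2 probe did not follow, at -0.07 ± 0.36 for 6, 12 and 24 h and -1.02 ± 0.36 for 0, 48 and 96 h, neither called.

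UHRF1, which carries DNA methylation through replication, showed the same hours. Its brightest probe measured 12.36, 12.57 and 12.59 at 6, 12 and 24 h on the arrays labelled HOXC9, against 13.12, 13.32 and 13.32 on the GFP arrays. In the other set the values were 13.14, 12.99 and 13.01 against 13.15, 13.06 and 13.02, within the spread between arrays. All 3 UHRF1 probes gave this picture: at 6, 12 and 24 h they differed by -0.74, -1.29 and -1.38, and at the other hours by -0.03, 0.12 and 0.13, with no call. The faintest of the 3 measured 8.36, 8.65 and 8.52 on the arrays labelled HOXC9 and 9.86, 9.94 and 9.86 on the GFP arrays at 6, 12 and 24 h.

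CDC25A and the E cyclins were lower in both sets of hours. CDC25A, the phosphatase that activates the cyclin E kinase, measured 11.49, 11.03, 11.11, 11.09, 11.36 and 11.16 from 0 to 96 h on the arrays labelled HOXC9, against 12.18, 11.86, 11.91, 11.82, 12.16 and 11.65 on the GFP arrays. No array labelled HOXC9 reaches the lowest GFP array. This is the brighter probe, and the fainter one gave -0.38 ± 0.16 at 6, 12 and 24 h (not called) and -0.53 ± 0.16 at 0, 48 and 96 h (called). On the brighter probe the difference was -0.79 ± 0.07 at 6, 12 and 24 h (adjusted p = 8.37e-06) and -0.66 ± 0.07 at 0, 48 and 96 h (adjusted p = 5.79e-05). CCNE1, cyclin E1, was lower by 0.66 ± 0.07 at 6, 12 and 24 h and by 0.25 ± 0.07 at 0, 48 and 96 h. Its arrays labelled HOXC9 measured 14.53, 14.09, 14.2, 14.14, 14.38 and 14.31 from 0 to 96 h, and its GFP arrays 14.76, 14.8, 14.92, 14.68, 14.59 and 14.63. CCNE2, cyclin E2, has a low level, with a mean of 7.40 over all arrays where the 40th percentile of genes is 7.28. It was lower by 0.74 ± 0.22 and 0.66 ± 0.22 in the 2 sets. That call rests on few arrays, since leaving out single hours raised the adjusted p of CCNE2 to 0.074 in the first set and 0.177 in the second.

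**Figure D2:**
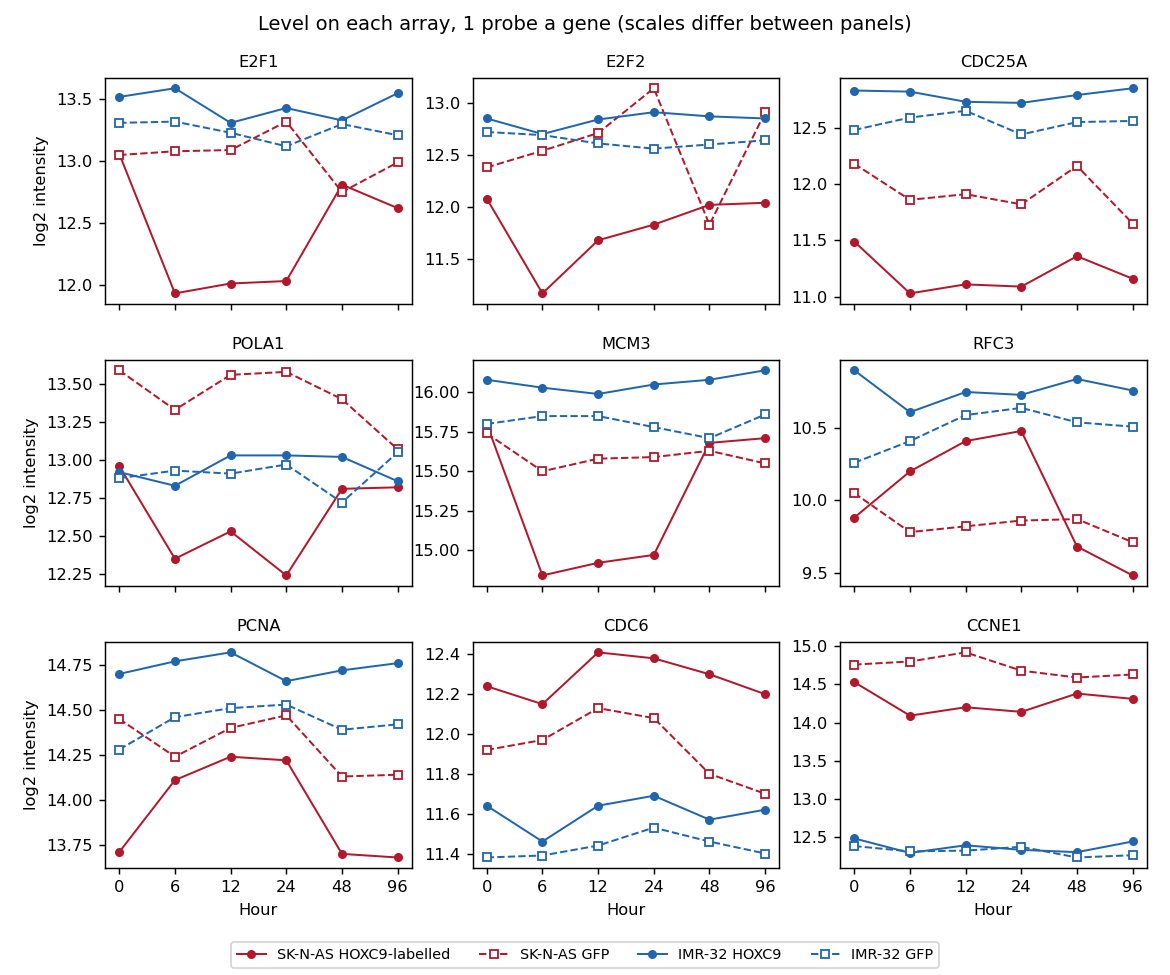
Log2 intensity on each of the 24 arrays (vertical axis, scale differs between panels) by hour (horizontal axis) for 9 genes, 1 probe a gene; filled circles are HOXC9 arrays, open squares GFP arrays, red SK-N-AS and blue IMR-32. In SK-N-AS, E2F1 and MCM3 lie low at 6, 12 and 24 h on the arrays labelled HOXC9, RFC3 lies high there, and CDC25A lies below its GFP arrays at every hour.

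Origin licensing genes moved in both directions. At 6, 12 and 24 h 4 of 10 were lower (CDT1, MCM2, MCM3 and MCM5), 3 were higher (ORC1, ORC6 and CDC6) and 3 were not called (MCM4, MCM6 and MCM7). CDT1, which loads the MCM helicase, measured 12.42, 12.64 and 12.8 on the arrays labelled HOXC9, against 13.53, 13.63 and 13.71 on the GFP arrays, a difference of -1.0 ± 0.19 (adjusted p = 0.00123), and its second probe gave -0.60 ± 0.23, not called (adjusted p = 0.0568). Its GFP values were wide at the other hours, at 13.17, 13.19 and 14.2, where the difference of -0.22 ± 0.19 was not called. MCM5, a helicase subunit, was lower by 0.63 ± 0.10 (adjusted p = 0.000437) on its brightest probe and by 1.22 ± 0.13 on the other. MCM3, another subunit, measured 14.84, 14.92 and 14.97 on the arrays labelled HOXC9 and 15.5, 15.58 and 15.59 on the GFP arrays, a difference of -0.65 ± 0.06 (adjusted p = 9.02e-06). The second MCM3 probe did not follow: it measured 11.87, 11.97 and 12.16 against 12.17, 11.86 and 11.86, a difference of 0.04 ± 0.14. MCM2 was lower by 0.36 ± 0.11, a call that ended when 6 or 24 h was left out (adjusted p up to 0.14).

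The loaders that were higher at 6, 12 and 24 h are ORC1 and ORC6, subunits of the origin recognition complex, and CDC6, which works with CDT1. ORC1 measured 9.69, 9.78 and 9.86 on the arrays labelled HOXC9, against 9.36, 9.35 and 9.23 on the GFP arrays, a difference of 0.46 ± 0.11 (adjusted p = 0.0047). ORC6 measured 13.81, 13.8 and 13.82 against 13.79, 13.46 and 13.1, so its difference of 0.37 ± 0.12 comes mostly from the GFP arrays, and leaving out 24 h or 12 h ended the call (adjusted p up to 0.272). The second ORC6 probe was higher by 0.63 ± 0.10 (adjusted p = 0.000289). For ORC1 leaving out 24 h gave an adjusted p of 0.0608. CDC6 was higher in both sets of hours, by 0.26 ± 0.07 at 6, 12 and 24 h (adjusted p up to 0.0726 with an hour left out) and by 0.44 ± 0.07 at 0, 48 and 96 h (adjusted p = 0.000413). Over 0, 48 and 96 h CDC6 measured 12.24, 12.3 and 12.2 on the arrays labelled HOXC9 and 11.92, 11.8 and 11.7 on the GFP arrays, which do not overlap. ORC1 and ORC6 differed by -0.18 ± 0.11 and -0.29 ± 0.12 at those hours and were not called.

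Helicase activators were lower with 1 exception. At 6, 12 and 24 h 5 of 6 were lower, 83.3% against 23.7% of all genes, and GINS4 was higher by 0.49 ± 0.15. CDC45, which joins MCM and GINS into the working helicase, measured 14.23, 14.3 and 14.37 on the arrays labelled HOXC9, against 15.02, 14.98 and 14.94 on the GFP arrays, a difference of -0.68 ± 0.06 (adjusted p = 6.48e-06). In the other set CDC45 differed by -0.15 ± 0.06 and was not called (adjusted p = 0.0744). MCM10, a helicase activator, was lower by 0.29 ± 0.07 in each set of hours. GINS1, GINS2 and GINS3, subunits of the GINS complex, were lower by 0.45 ± 0.10, 0.27 ± 0.07 and 0.38 ± 0.07 at 6, 12 and 24 h, and of the 3 GINS2 alone was called at the other hours (-0.21 ± 0.07). GINS4 is the dimmest member, with a mean of 7.04, below the 40th percentile of genes (7.28). With 6 h left out MCM10, GINS1 and GINS2 were no longer called in the first set of hours (adjusted p of 0.0511, 0.0618 and 0.104), and GINS4 lost its call with any of its 3 hours left out (up to 0.11). The second, fainter GINS4 probe gave 0.27 ± 0.16, not called. GINS2 also lost its call at 0, 48 and 96 h with single hours left out (up to 0.188).

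Among the 11 genes that copy DNA, 4 were lower and 3 higher at 6, 12 and 24 h, 36.4% and 27.3% against 23.7% and 24.3% of all genes. At 0, 48 and 96 h 5 were lower and 0 higher, 45.5% and 0.0% against 18.2% and 18.0% of all genes. POLA1, the catalytic subunit of the priming polymerase, measured 12.35, 12.53 and 12.24 at 6, 12 and 24 h on the arrays labelled HOXC9, against 13.33, 13.56 and 13.58 on the GFP arrays, a difference of -1.11 ± 0.11 (adjusted p = 1.24e-05). In the other set POLA1 was lower by 0.49 ± 0.11 (adjusted p = 0.0054, and 0.0603 with 0 h left out). POLD1, the catalytic subunit of polymerase delta, measured 13.19, 13.23 and 13.33 against 14.1, 14.09 and 14.08 at 6, 12 and 24 h, and 14.08, 14.08 and 13.92 against 14.08, 14.02 and 14.16 at the other hours. Its difference of -0.84 ± 0.07 (adjusted p = 3.85e-06) was on the brighter probe, and the second POLD1 probe gave -0.23 ± 0.09, not called. PRIM1, the primase that shares a complex with POLA1, went the other way, at 11.82, 12.01 and 12.06 against 11.4, 11.45 and 11.41, a difference of 0.54 ± 0.15 (adjusted p = 0.0132, up to 0.084 with an hour left out). FEN1, the flap nuclease, and LIG1, the ligase that joins Okazaki fragments, were lower by 0.38 ± 0.11 and 0.39 ± 0.09 at 6, 12 and 24 h, and FEN1 lost its call with 6 h left out (adjusted p = 0.0762).

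For the clamp loader subunits and the clamp the values are given by set of hours. RFC2 measured 12.06, 12.11 and 12.09 at 6, 12 and 24 h on the arrays labelled HOXC9, against 11.54, 11.48 and 11.54 on the GFP arrays, and was higher by 0.56 ± 0.08 (adjusted p = 0.000101). RFC3 was higher by 0.54 ± 0.10 (adjusted p = 0.000711) on its brightest probe, while its second, dimmer probe gave 0.00 ± 0.09. In the other set RFC2 differed by 0.00 ± 0.08 and RFC3 by -0.20 ± 0.10, neither called, and the dimmer RFC3 probe was lower by 0.32 ± 0.09 (adjusted p = 0.0258). RFC4 and RFC5, subunits of the same complex, were not called at 6, 12 and 24 h (-0.19 ± 0.11 and -0.12 ± 0.06) and were lower at 0, 48 and 96 h, by 0.48 ± 0.11 and 0.56 ± 0.06. RFC5 then measured 12.12, 12.02 and 12.03 on the arrays labelled HOXC9 and 12.72, 12.55 and 12.58 on the GFP arrays (adjusted p = 3.04e-05). PCNA, the sliding clamp, was lower at the same hours, at 13.71, 13.7 and 13.68 against 14.45, 14.13 and 14.14 at 0, 48 and 96 h, a difference of -0.54 ± 0.08 (adjusted p = 0.000326), and -0.18 ± 0.08 at 6, 12 and 24 h. POLE2, a subunit of polymerase epsilon, was lower by 0.39 ± 0.11 at 0, 48 and 96 h (adjusted p = 0.0191, and 0.12 with 96 h left out).

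Of the nucleotide enzymes, the 2 subunits of ribonucleotide reductase moved in opposite directions at 6, 12 and 24 h. RRM1, the large subunit, measured 14.48, 14.66 and 14.45 on the arrays labelled HOXC9, against 15.24, 15.29 and 15.32 on the GFP arrays, and was lower by 0.75 ± 0.08 (adjusted p = 1.71e-05). RRM2, the small subunit, measured 12.02, 12.3 and 12.4 against 11.67, 11.66 and 11.79, and was higher by 0.53 ± 0.09 (adjusted p = 0.000755). A second RRM2 probe gave 0.46 ± 0.08, and a faint probe with the older symbol C2orf48, matched to RRM2 through its current synonym, gave 0.22 ± 0.28. Neither subunit was called at 0, 48 and 96 h (-0.18 ± 0.08 and -0.15 ± 0.09). TYMS, thymidylate synthase, was lower by 0.42 ± 0.10 at 0, 48 and 96 h (adjusted p = 0.00742) and differed by -0.23 ± 0.10 at 6, 12 and 24 h. SLBP, which binds histone mRNA, was not called in either set, at 0.17 ± 0.08 for 6, 12 and 24 h and -0.23 ± 0.08 for 0, 48 and 96 h.

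**Figure D3:**
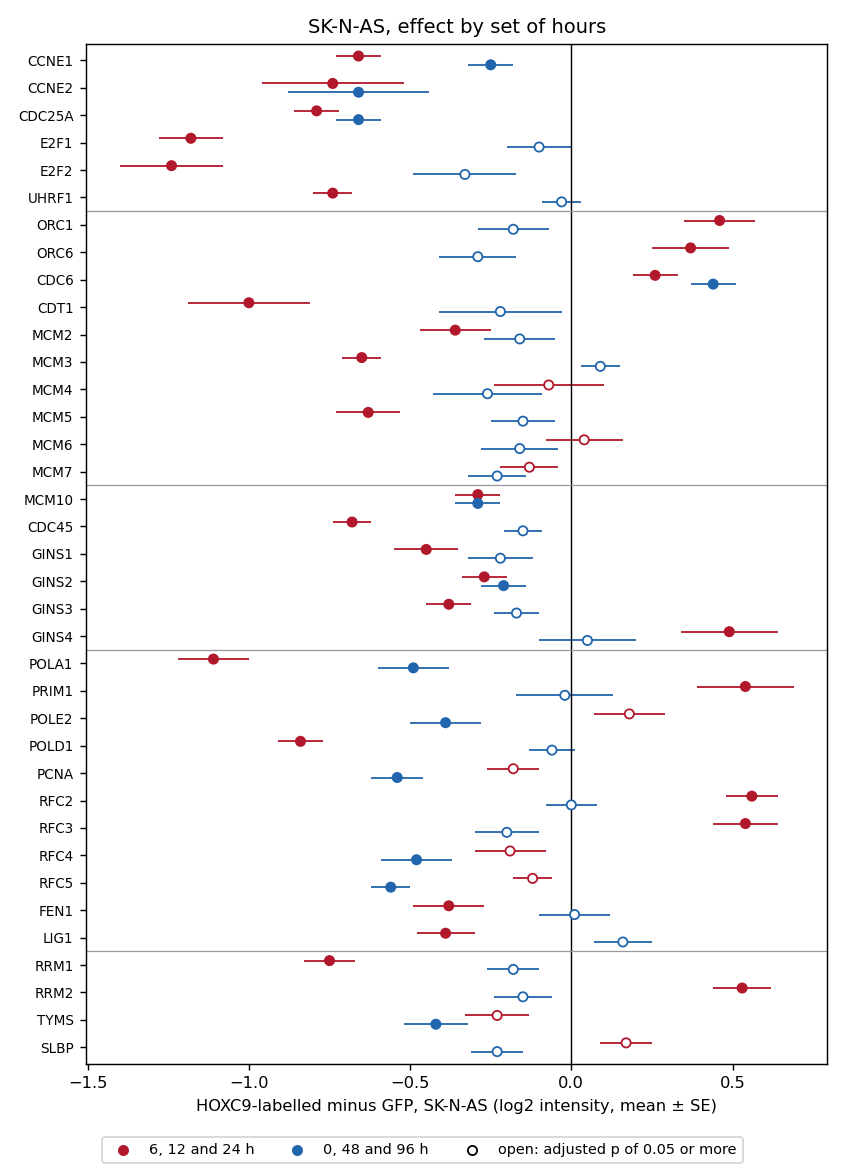
Difference between arrays labelled HOXC9 and GFP arrays in SK-N-AS (log2 intensity, mean ± SE, horizontal axis) for each of the 37 genes (rows), in red for 6, 12 and 24 h and in blue for 0, 48 and 96 h (3 arrays per group each); filled points have an adjusted p under 0.05. The SE comes from a fit of all 24 arrays of both lines. The red points run from -1.24 for E2F2 to 0.56 for RFC2, and the blue points from -0.66 for CDC25A and CCNE2 to 0.44 for CDC6.

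Within the SK-N-AS arm labelled HOXC9, 14 of 37 members measured higher on every array of 6, 12 and 24 h than on any of 0, 48 and 96 h. Another 14 were lower on every one, and 9 overlapped. Of all genes 30.1% were higher and 30.7% lower in this way, so the split is not particular to the members. In the SK-N-AS GFP arm 8 of 37 members were higher and none lower, against 6.74% and 5.85% of all genes. RRM2 was 1.18 higher at 6, 12 and 24 h in the arm labelled HOXC9 and 0.49 higher in the GFP arm, and E2F1 differed by -0.84 and 0.23. The split of hours was noticed in these data, so the difference between the 2 sets was not tested. Over the 37 members the difference between arrays labelled HOXC9 and GFP arrays at 6, 12 and 24 h correlated with the mean level at r = -0.35 (rho = -0.35). This is across genes, which are not independent and share their arrays. Over the 8174 genes above a log2 level of 9 the correlation was r = -0.1. The median difference was -0.39 for the 19 members above a log2 level of 13 and 0.36 for the 12 members up to 12, against -0.18 for all genes above 13 and 0.03 for all genes between 9 and 12. At 0, 48 and 96 h the corresponding medians were -0.17 and -0.19. Whether brightness plays a part in the pattern was not tested.

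Motif shares were also counted by direction of change. Of 18 members with a promoter window that were lower at 6, 12 and 24 h, 12 held an E2F-type match (66.7%). Of 7 higher members 2 did (28.6%), CDC6 and RFC3. Of 8 members not called 5 did (62.5%). The sets are small and were not tested.

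In IMR-32 few of the same genes passed the test against the GFP arrays. Over 6 to 96 h 3 of 37 were higher and none lower, 8.11% of members against 24.0% of all genes, a smaller share than the background (12.6% of all genes higher and 11.4% lower). At an unadjusted p under 0.05 there were 6. The median difference was 0.07, against -0.01 for all genes, and 29 of 37 members lay above 0, as did 8403 of all 17199 genes. PCNA measured 14.77, 14.82, 14.66, 14.72 and 14.76 from 6 to 96 h on the HOXC9 arrays, against 14.46, 14.51, 14.53, 14.39 and 14.42 on the GFP arrays. Every HOXC9 array lies above every GFP array, by 0.28 ± 0.07 on average (adjusted p = 0.0196). RFC5 measured 12.99, 12.99, 12.97, 13 and 13.04 against 12.73, 12.67, 12.75, 12.71 and 12.75, a difference of 0.27 ± 0.09 (adjusted p = 0.0478). CDC25A measured 12.82, 12.73, 12.72, 12.79 and 12.85 against 12.59, 12.65, 12.44, 12.55 and 12.56, a difference of 0.22 ± 0.07 (adjusted p = 0.0471). These 3 calls depend on the arrays in the fit. Leaving out any one hour gave 0 to 2 calls, with adjusted p up to 0.0835 for PCNA, 0.137 for RFC5 and 0.172 for CDC25A, and a fit of the IMR-32 arrays alone called 12 members, 10 higher and 2 lower, 32.4% against 38.2% of all genes and so under the background as well. In all, 8 members were higher and 2, CDT1 and POLD1, lower on every HOXC9 array than on any GFP array of 6 to 96 h, while 30.7% of all genes do not overlap.

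The difference between the lines was then tested, over 6 to 96 h. The SK-N-AS effect lay under the IMR-32 effect for 17 members and above it for 0, 45.9% of members against 40.6% of all genes, of which 20.5% lay under and 20.1% above. All 6 genes grouped as G1/S regulators, UHRF1 included, were among the 17. CDC25A had the smallest adjusted p, with effects of -0.73 ± 0.07 in SK-N-AS and 0.22 ± 0.07 in IMR-32, a difference of -0.95 ± 0.10 (adjusted p = 6.54e-05). For PCNA the effects were -0.28 ± 0.07 and 0.28 ± 0.07, a difference of -0.57 ± 0.10 (adjusted p = 0.00202), and for RFC5 -0.29 ± 0.09 and 0.27 ± 0.09, a difference of -0.56 ± 0.13 (adjusted p = 0.00582). E2F1 and POLA1 differed by -0.98 ± 0.25 and -0.88 ± 0.20. The count moves with the arrays in the fit. Without the arrays of 6, 12 or 24 h of both lines it was 8, 8 and 9, which is 21.6%, 21.6% and 24.3% of members against 28.1%, 27.7% and 28.7% of all genes. Without those 3 hours of SK-N-AS it was 9, 24.3% of members, where 5154 of 17199 genes were called. In these 4 fits the members' share lies under the background. Of the 6 regulators, CDC25A and CCNE1 kept their call with any hour left out. The other 4 did not, with adjusted p up to 0.0595 for CCNE2, 0.0621 for E2F1, 0.055 for E2F2 and 0.132 for UHRF1. The SK-N-AS effects carry the direction of the labels, which the HOXC9 probe goes against.

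**Figure D4:**
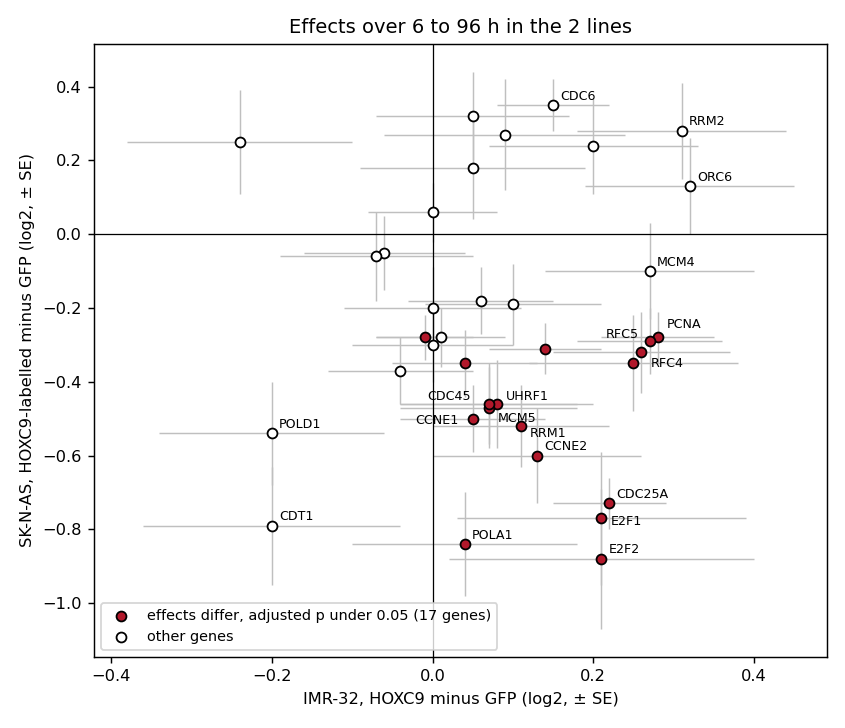
HOXC9 minus GFP over 6 to 96 h (log2 intensity, ± SE) in SK-N-AS (vertical axis, arrays as labelled) and in IMR-32 (horizontal axis) for the 37 genes; red points are the 17 whose effects differ at an adjusted p under 0.05. The red points lie below 0 in SK-N-AS, and IMR-32 effects stay between -0.24 and 0.32.

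The GFP arrays of the 2 lines were also compared. HOXC9 itself measured 12.09 to 12.47 on the SK-N-AS GFP arrays and 5.63 to 6.25 on the IMR-32 GFP arrays. On the GFP arrays 13 members were higher and 10 lower in SK-N-AS against IMR-32, 62.2% of members against 68.0% of all genes, where 38.3% of all genes were higher and 29.7% lower. CCNE1 differed most, at 14.73 ± 0.12 in SK-N-AS against 12.31 ± 0.06 in IMR-32 (SD, n = 6 each), a difference of 2.42 ± 0.07 (adjusted p = 2.08e-07) that was seen at all 6 hours. CCNE2, with a low mean level of 7.40 over all arrays, was higher by 1.04 ± 0.20, RRM2 by 0.72 ± 0.10, MCM10 by 0.69 ± 0.07 and RFC2 by 0.60 ± 0.06. Lower in SK-N-AS were ORC1 (-0.74 ± 0.06), RFC3 (-0.64 ± 0.10), GINS2 (-0.63 ± 0.06), CDC25A (-0.62 ± 0.10) and POLD1 (-0.55 ± 0.06). E2F1 and E2F2 were not called, at -0.20 ± 0.10 and -0.05 ± 0.18. RRM2 depends on the probe: the second probe gave 0.00 ± 0.11, the faint one -2.09 ± 0.20, and the mean of the 3 turned the direction, to -0.46. The calls of CDT1, MCM3, CDC45 and RFC4 ended when an hour was left out (adjusted p up to 0.0827, 0.0891, 0.0616 and 0.0864).

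**Figure D5:**
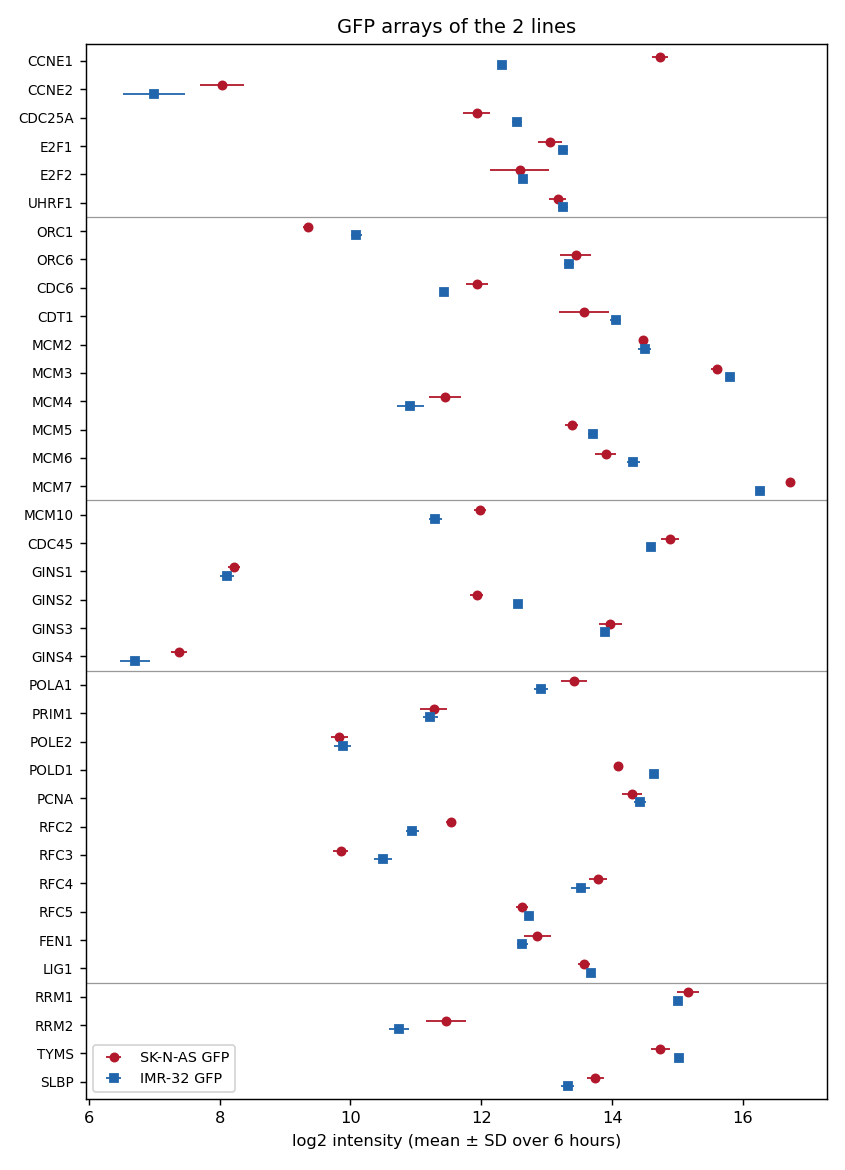
Log2 intensity of the 37 genes on the GFP arrays (mean ± SD over 6 hours, horizontal axis), red circles SK-N-AS and blue squares IMR-32; levels of different genes come from different probes and are not comparable. The widest gap is that of CCNE1, at 14.73 in SK-N-AS and 12.31 in IMR-32.

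No member passed the test for a steady slope from 0 to 96 h. Slopes on log2(1 + hour/6) called 0 of 37 members in the GFP arrays of SK-N-AS and of IMR-32 (limma, smallest adjusted p 0.438 and 1.0), against 0.0% and 0.0116% of all genes. At an unadjusted p under 0.05 there were 1 and 0 members. The slopes of HOXC9 and GFP arrays differed for 0 members in SK-N-AS and 0 in IMR-32, with 1 and 0 at an unadjusted p under 0.05 (smallest adjusted p 0.742 and 1.0), against 0.00581% and 0.0% of all genes. In SK-N-AS the count was 6 with 0 h left out, 16.2% of members against 12.7% of all genes in that fit.

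Other genes of the same steps were read as lists of 15 licensing and initiation genes, 19 fork genes, 10 genes of nucleotide supply and chromatin assembly, and 16 of the E2F and RB network. At 6, 12 and 24 h in the SK-N-AS line the numbers lower and higher were 5 and 6, 11 and 4, 6 and 2, and 10 and 0 in the order given, against 23.7% and 24.3% of all genes. Median differences were -0.04, -0.24, -0.37 and -0.44, against -0.03 for all genes. GMNN, geminin, the inhibitor of CDT1, was lower by 1.31 ± 0.07 at 6, 12 and 24 h and by 1.30 ± 0.07 at 0, 48 and 96 h. E2F3, an activating E2F, was lower by 1.49 ± 0.06 and 0.64 ± 0.06 in those sets, and SKP2, a ubiquitin ligase subunit that removes the kinase inhibitor p27, by 1.55 ± 0.10 and 0.66 ± 0.10. POLE3, a small subunit of polymerase epsilon, was higher by 1.09 ± 0.08 at 6, 12 and 24 h, and MCM8, of the licensing list, by 0.85 ± 0.09. Higher at 0, 48 and 96 h were POLD4, of the fork list, by 1.41 ± 0.19 and RECQL4, of the licensing list, by 0.43 ± 0.07. At 0, 48 and 96 h the numbers lower and higher in the 4 lists were 4 and 1, 5 and 1, 4 and 2, and 6 and 1. Of all genes 18.2% were lower and 18.0% higher at those hours. In IMR-32 the numbers over 6 to 96 h were 0 and 2, 0 and 1, 0 and 2, and 1 and 0. Of all genes 11.4% were lower and 12.6% higher in that line. There ORC5, another ORC subunit, was higher by 2.96 ± 0.17 and NASP, a histone chaperone, by 0.53 ± 0.07. E2F8, a repressing E2F, was lower by 0.52 ± 0.12. Of the proliferation markers, MKI67 was lower in SK-N-AS by 0.51 ± 0.12 at 0, 48 and 96 h (adjusted p = 0.00624) and not called at 6, 12 and 24 h (-0.22 ± 0.12). TOP2A was not called at 0, 48 and 96 h (-0.33 ± 0.25), at 6, 12 and 24 h (0.20 ± 0.25) or in IMR-32 (0.42 ± 0.15, adjusted p = 0.0636). In bulk RNA, fewer cycling cells and less RNA per cell cannot be told apart.

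The 16 members with several probes were compared probe by probe, with 44708 features tested. At 6, 12 and 24 h in SK-N-AS all probes had the same sign for 14 of the 16, and no gene had probes called in both directions. Every probe was called lower for 5 genes (FEN1, GINS3, MCM10, MCM5 and UHRF1) and higher for 1 (ORC6). The 55 probes counted 26 lower and 10 higher, 65.5%, against 42.5% of all features. At 0, 48 and 96 h they counted 13 lower and 1 higher, 25.5% against 27.2%. In IMR-32 they counted 2 lower and 1 higher, 5.45% against 22.8%, with GINS3 and GINS4 lower on their second probes. Over 6 to 96 h in SK-N-AS they counted 28 lower and 1 higher, 52.7% against 35.4%. For the difference between the lines the count was 20 lower and 1 higher, 38.2% against 36.0%, and for the GFP arrays 14 higher and 21 lower, 63.6% against 63.8%. RRM2 was the gene with probes called in both directions there.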

How the data were processed

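RNA of 24 samples was measured on one-colour arrays. The deposited intensity values have nearly the same distribution on all arrays (the largest gap at equal rank is 0.0723%), as quantile normalisation leaves it; the step itself is not given in the sources used here, and limma is named in the submitters' processing notes. Detection flags and background were not given in the sources used here, so depth is unknown and the number of arrays limits precision. Values were taken as log2 of the intensity (44708 features, 27942 with a symbol, 2936 of 17370 symbols updated through RefSeq names), with the brightest probe of each of 17199 genes. limma 3.58.1 (R 4.3.3; lmFit and eBayes) was fitted over all genes with line and hour as a block, Benjamini-Hochberg adjustment and a threshold of 0.05. Other probes, scalings, blocks, filters and left-out hours were tried. Named genes are all 37 members and, from each other list, up to 3 with the smallest p in each HOXC9 comparison, with HOXC9, MKI67 and TOP2A added; markers of other cells were named after their values were seen. The members and lists were chosen with earlier results of these data known.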

Additional observations from a re-analysis of the deposited data

Results flagged for a closer look

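One array stood far from the other 5 of its group in 4 of 148 gene and group combinations (Dixon's test at 95%), fewer than the 1 in 20 that chance gives. MCM4 measured 10.96 on the SK-N-AS GFP array of 48 h, against 11.44 to 11.63 on the other 5. RFC2 measured 11.69 on the SK-N-AS GFP array of 48 h, against 11.48 to 11.54. E2F2 measured 12.7 on the IMR-32 HOXC9 array of 6 h, against 12.84 to 12.91. CDC45 measured 14.7 on the IMR-32 GFP array of 96 h, against 14.54 to 14.59.

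The HOXC9 minus GFP effect over 6 to 96 h differed between the lines for 17 members by the test of the difference (SK-N-AS minus IMR-32, log2, limma). That is 45.9% of members against 40.6% of all genes. Of these calls 10 ended when a single hour was left out. They were those of CCNE2, E2F1, E2F2, UHRF1, MCM3, MCM5, CDC45, GINS2, RRM1 and TYMS (adjusted p up to 0.141, for GINS2). Among the genes grouped as G1/S regulators the differences were -1.09 for E2F2, -0.98 for E2F1, -0.95 for CDC25A, -0.73 for CCNE2, -0.55 for CCNE1 and -0.54 for UHRF1. For licensing and helicase genes they were -0.59 for MCM3, -0.54 for MCM5, -0.53 for CDC45, -0.44 for MCM10 and -0.27 for GINS2. For the genes that copy DNA they were -0.88 for POLA1, -0.58 for RFC4, -0.57 for PCNA and -0.56 for RFC5, and for nucleotide enzymes -0.63 for RRM1 and -0.39 for TYMS. The SK-N-AS effects keep the direction of the labels, which the HOXC9 probe goes against.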

How the results depend on the processing

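Numbers are members called of 37, with the share of members and then of all genes called in the same fit. For HOXC9 against GFP in IMR-32 (3), the count was 1 with every probe tested on its own (2.7% against 22.9%). It was 1 with no replicate block (2.7% against 25.5%) and 12 with the IMR-32 arrays alone (32.4% against 38.2%). It was 6 when the SK-N-AS hours 6, 12 and 24 were dropped (16.2% against 28.4%), an alternative chosen after seeing the data. Leaving out single hours gave 0 to 2, where 14.7% to 24.6% of all genes were called. For SK-N-AS over 6 to 96 h (22) it was 10 with that line alone (27.0% against 25.8%) and 5 with those hours dropped (13.5% against 22.0%). With single hours left out it was 14 to 24, where 28.3% to 45.1% of all genes were called. For the difference between the lines (17) it was 9 (1 higher, 8 lower) with those hours dropped and 8 to 20 with single hours left out. For the slope difference in SK-N-AS (0) it was 0 to 6 with single hours left out, the 6 being 16.2% of members against 12.7% of all genes. The direction turned for 2 values direction: the RFC3 difference between lines, 0.04, was -0.41 (adjusted p = 0.0276) with those hours dropped, and the RRM2 difference between GFP arrays, 0.72, was -0.46 (adjusted p = 0.00489) with the mean of all probes. The cause was not tested. The other alternatives kept these counts within 1.5 times. No label says whether arrays of the same hour share more than that hour. Their deviations correlated at -0.052 to 0.14 in SK-N-AS, where 3 of 12 arrays were closest to their own hour. In IMR-32 all were above 0, at 0.037 to 0.109, and 7 of 12 arrays were closest to their own hour. Without the replicate block the counts were 24 for SK-N-AS over 6 to 96 h (64.9% of members against 42.6% of all genes) and 29 at 6, 12 and 24 h (78.4% against 47.5%). They were 13 at 0, 48 and 96 h (35.1% against 36.3%), 19 for the difference (51.4% against 41.5%) and 24 for the GFP arrays (64.9% against 70.3%). No background measure was used here, so the dimmest members cannot be set against background.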
